A study of Mus musculus with 34 samples.

Results

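The 40 genes described here encode the contractile, calcium-handling and energy-buffering proteins of striated muscle, and were followed library by library in RNA from mouse tracheal brushings. A brushing is meant to collect the airway's surface epithelium. The genes were taken from a named list by gene symbol, and all 40 were found among the 24223 rows of the deposited count table. They were divided by textbook knowledge into 14 fast-fibre genes, 8 slow-fibre or cardiac genes and 18 genes of both fibre types. All 28 mice of that table were Gprc5a-/-, the unexposed ones included, so both copies of Gprc5a, a lung-expressed receptor gene, were lost in every group. The baseline group (6 mice, labelled 6 to 8 weeks old) was sampled before exposure. The other 4 groups had received the tobacco carcinogen NNK at 50 mg/kg into the peritoneum 3 times per week for 8 weeks. They were sampled at its end (t0, 6 mice) and 2 months (t2, 5 mice), 4 months (t4, 6 mice) and 6 months (t6, 5 mice) later. No unexposed knockout mice of the later ages were analysed here, so age, time after exposure and sampling day cannot be told apart. A further 6 brushings came from unexposed wild-type mice of 6 to 8 weeks and were processed separately by the authors.

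Striated muscle contracts when myosin heavy chains pull on actin filaments, and the troponin complex on those filaments makes the pull depend on calcium. Fast fibres, slow fibres and heart muscle build the same machine from different genes. The forms of myosin, troponin and calcium pump, read together, thus help tell which kind of muscle an RNA came from. Fast fibres of limb and neck use Myh4, Myh1 and Myh2 with Tnnc2, Tnni2 and Tnnt3. Slow fibres use Myh7 with Tnnc1, Tnni1 and Tnnt1, and the adult mouse heart uses mainly Myh6. Airway epithelium has no sarcomeres, and the muscle of the tracheal wall is smooth.

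Library totals ran from 15625276 to 37609816 counts, and values are given as counts per 1000000 (CPM) after trimmed-mean scaling. The 40 genes together took between 0.00457% and 0.289% of a library's counts. Haemoglobin took 22.8% of the counts in t0 mouse 357, 25.5% in t4 mouse 371 and 15.3% in t6 mouse 349, and at most 3.06% elsewhere. Gprc5a, the deleted gene, had 4 to 49 counts in 27 knockout libraries and 238 counts in t2 mouse 339 (8.06 CPM by library total, without that scaling). That last library also had 14475 genes above 0, against 16892 to 19082 in the others, and is given below as the library labelled t2 mouse 339. The club cell secretoglobin Scgb1a1, a defining airway epithelial marker, was at 25501 to 44233 CPM at baseline and 242 to 1283 CPM at t0, and at 7401 to 29924 CPM at t6. A lower share of muscle cells and less RNA per cell cannot be told apart in such bulk RNA. Each library was a separate mouse per the series design.

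Sequences just upstream of the start sites were available from RefSeq (GRCm38.p6) for 29 of the 40 genes. Shown are the 250 bases before the start of the fast and slow troponin C genes, the most abundant fast myosin, the slow myosin and skeletal actin, the genes that the fast and slow comparison turns on. Tnnc2 is at chr2:164779735-164779984, minus strand, Tnnc1 at chr14:31208062-31208311, plus strand, Myh4 at chr11:67237562-67237811, plus strand, Myh7 at chr14:54994550-54994799, minus strand and Acta1 at chr8:123894776-123895025, minus strand. Each is written 5′ to 3′ on its own gene's strand. Capitals mark E-boxes (CANNTG, the core that MyoD-family factors bind) and CArG boxes (the serum response factor motif).
Tnnc2: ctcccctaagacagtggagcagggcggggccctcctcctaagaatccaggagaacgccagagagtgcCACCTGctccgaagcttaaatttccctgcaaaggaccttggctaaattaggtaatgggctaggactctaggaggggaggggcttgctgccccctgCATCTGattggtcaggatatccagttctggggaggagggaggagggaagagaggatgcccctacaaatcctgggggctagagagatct
Tnnc1: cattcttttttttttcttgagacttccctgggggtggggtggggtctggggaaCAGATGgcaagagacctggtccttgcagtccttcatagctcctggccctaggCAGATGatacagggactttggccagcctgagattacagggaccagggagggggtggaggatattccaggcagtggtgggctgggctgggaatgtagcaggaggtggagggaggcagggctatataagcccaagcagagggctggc
Myh4: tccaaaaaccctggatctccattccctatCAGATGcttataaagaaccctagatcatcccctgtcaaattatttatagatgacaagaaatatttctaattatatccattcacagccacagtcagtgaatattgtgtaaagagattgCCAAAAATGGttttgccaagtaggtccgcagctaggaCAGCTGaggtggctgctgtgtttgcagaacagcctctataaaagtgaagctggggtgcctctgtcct
Myh7: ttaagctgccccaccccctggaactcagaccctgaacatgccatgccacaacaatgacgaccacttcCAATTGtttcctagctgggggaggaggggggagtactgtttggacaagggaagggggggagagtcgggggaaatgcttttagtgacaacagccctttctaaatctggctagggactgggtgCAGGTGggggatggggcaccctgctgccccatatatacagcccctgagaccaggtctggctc
Acta1: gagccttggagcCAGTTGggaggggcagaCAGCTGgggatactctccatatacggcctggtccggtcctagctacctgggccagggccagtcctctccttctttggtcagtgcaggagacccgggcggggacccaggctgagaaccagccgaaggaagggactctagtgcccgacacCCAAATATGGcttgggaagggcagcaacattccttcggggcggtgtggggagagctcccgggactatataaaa
An E-box stood in 6 of the 9 fast, 8 of the 8 slow or cardiac and 9 of the 12 shared upstream regions, 79.3% of the 29 together. The same motif stood in 66.1% of all 27025 upstream regions of that length. CArG boxes, read on both strands, stood in 4 of the 29 (13.8%: Myh4, Myl3, Acta1 and Ldb3) against 1.40% of all regions. M-CAT sites (CATTCC on either strand) stood in 9 of the 29 (31%) against 12.6% of all. A letter match is a description of the sequence and no evidence of binding. No entry was found for Myoz1, Car3, Myot, Actn3, Tnnt3, Neb, Hfe2, Trdn, Tcap, Mylk2 or Tnni2.

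The fast-fibre genes were nearly silent in every baseline library and differed widely between exposed libraries, from 13.0 to 1723 CPM summed within the t6 group alone. Summed over the 14 fast genes, baseline libraries held 2.04 to 4.31 CPM (median 3.04), the lowest of all groups. At t0 the sums were 11.6 (mouse 332), 169 (mouse 357), 28.8 (mouse 359), 232 (mouse 367), 6.47 (mouse 374) and 10.6 CPM (mouse 375). At t2 they were 137 (mouse 334), 319 (mouse 339), 112 (mouse 347), 84.2 (mouse 358) and 1335 CPM (mouse 360). The t0 group thus held 2 high libraries and 4 low ones, while each t2 library was at least 84.2 CPM. At t4 the sums were 7.64 (mouse 335), 96.0 (mouse 336), 76.6 (mouse 340), 71.8 (mouse 348), 8.41 (mouse 371) and 81.3 CPM (mouse 377). At t6 they were 632 (mouse 341), 13.0 (mouse 349), 327 (mouse 365), 1723 (mouse 366) and 735 CPM (mouse 368). All 22 exposed sums lay above all 6 baseline sums, but 7 exposed libraries (t0 332, 359, 374 and 375, t4 335 and 371, t6 349) stayed below 30 CPM. Tnni2 alone held most of the sum in t0 mice 332 (8.48 CPM), 374 (3.99 CPM) and 375 (5.90 CPM). The lack of overlap with baseline at t0 thus rests largely on that 1 gene.

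**Figure D1:**
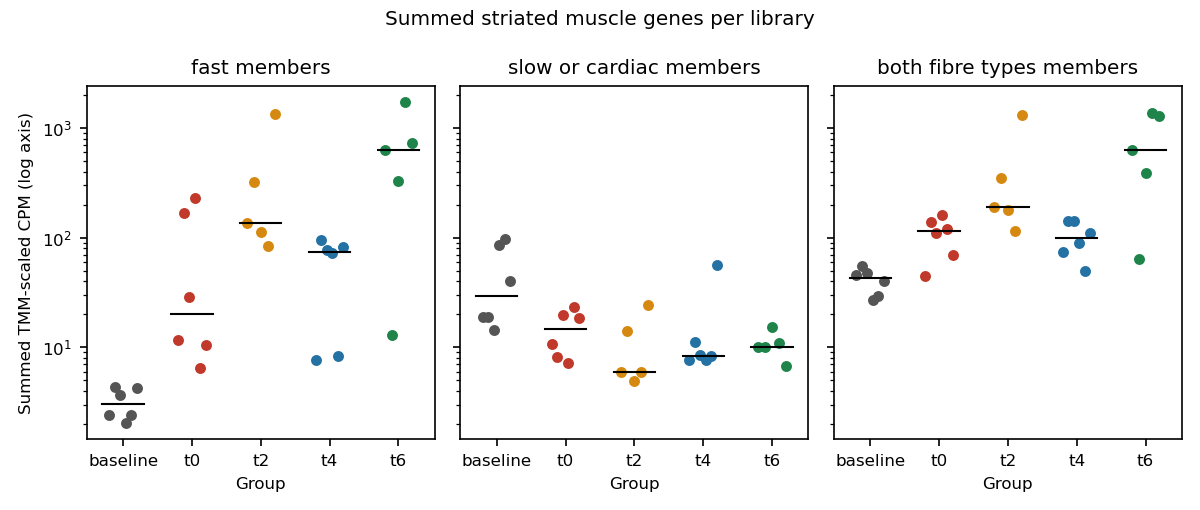
Summed TMM-scaled CPM (log axis) of the fast, slow or cardiac, and both-fibre-type genes in each of 28 knockout libraries by group; each point is 1 mouse and each line the group median. Fast sums run from 2.04 to 4.31 CPM at baseline and up to 1723 CPM at t6, while the slow or cardiac sum is highest at baseline (median 29.5 CPM).

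The summed slow or cardiac genes were highest before exposure, a sum carried by Myh7 and Myh6. It was 14.3 to 96.2 CPM at baseline (median 29.5), with medians of 14.7 at t0, 5.93 at t2, 8.40 at t4 and, by t6, 10.04 CPM. Myh7 and Myh6 made up 87.2% to 99.1% of it in the baseline libraries, and as little as 63.8% at t2 and 59.9% at t6. The mean level of each of the other 6 genes was highest in an exposed group, but every group except baseline was exposed. All 6 were scarce, and edgeR called none of them against baseline in a fit without a filter on low counts. The highest Tnni1 mean, at t2, rested on the library labelled t2 mouse 339, at 5.12 CPM against a group median of 0.516 CPM. No pattern opposite to that of Myh7 and Myh6 is read from these means. The 18 genes of both fibre types summed to 26.8 to 54.7 CPM at baseline and 63.8 to 1360 CPM at t6. Without Car3, which did not follow the fast genes, they summed to 18.3 to 50.4 CPM at baseline and 42.9 to 1309 CPM at t6, and overlapped.

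**Figure D2:**
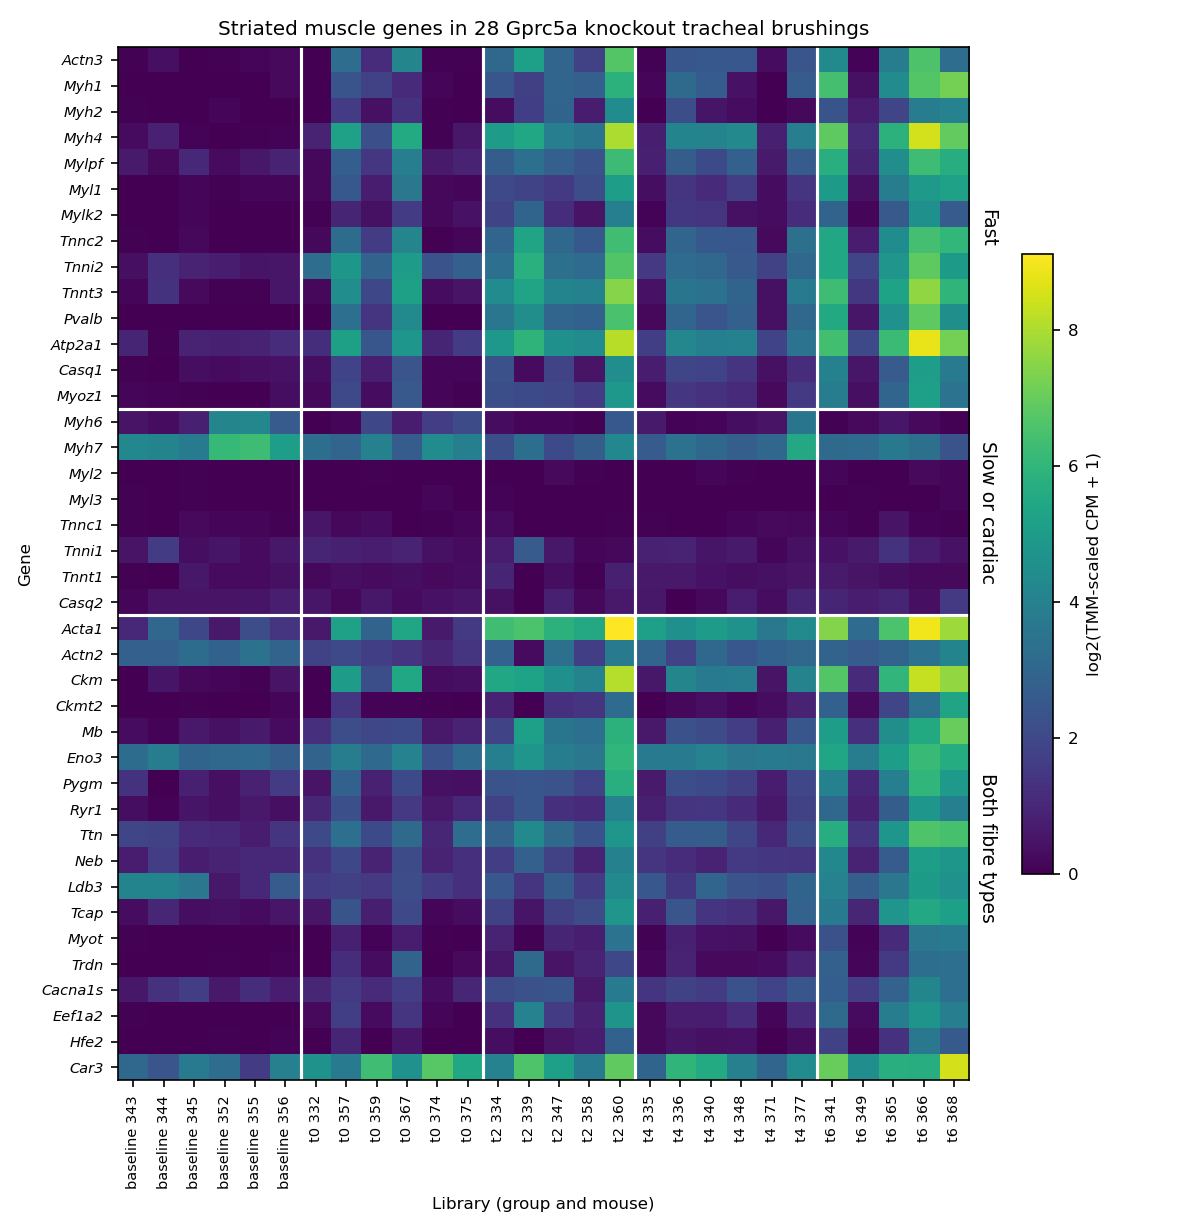
Level of each of the 40 genes, as log2(TMM-scaled CPM + 1), in each of the 28 knockout libraries; horizontal lines part the fast, slow or cardiac, and both-fibre-type genes and vertical lines part the groups. The fast block is dark at baseline and bright in t2 mouse 360 and 4 of 5 t6 libraries, and Myh7 is the bright row of the slow or cardiac block.

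Of the 40 genes, 34 passed the filter of at least 1 CPM in at least 5 libraries. The 6 that did not were all slow or cardiac: Myl2, Myl3, Tnnc1, Tnni1, Tnnt1 and Casq2. In an edgeR fit without that filter, none of the 6 was called in any comparison with baseline (lowest adjusted p = 0.145, Myl2 at t6, the only 1 with an unadjusted p under 0.05). A fast gene near 0 at baseline could pass only through the groups where it was high, so the counts that follow describe the genes and are no support for the group difference. At t0 against baseline, 22 of the 34 were higher and 3 lower, where 23.3% of the 14847 genes tested were higher and 22.3% lower. At t2 the counts were 30 higher and 1 lower (11.2% and 8.73% of all genes), with, at t4, 17 called and all of them higher (19.6% of all genes were called in either direction, 1488 of the 14847 being higher). At t6 they were 30 higher and 2 lower (4.54% and 4.29%). The calls use edgeR's quasi-likelihood test with Benjamini-Hochberg adjustment over all genes tested, at 0.05.

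All 14 fast genes were called higher at t0, t2 and t6, and 12 of 14 at t4, where Mylpf (adjusted p = 0.074) and Casq1 (adjusted p = 0.0581) missed the threshold in edgeR's test. Their median log2 fold change was 4.74 (t0), 7.38 (t2), 4.39 (t4) and 8.02 (t6). Over all 34 tested genes of the list it was 3.30, 6.01, 3.11 and 7.16, beside 0.02, 0.02, 0.01 and -0.01 over all genes tested. Libraries did not overlap with baseline for 3 higher genes at t0 (13.1% of all genes), 21 at t2 (5.59%), 8 at t4 (5.75%) and 22 at t6 (4.66%). The F test over all 5 groups called all 34 (56.8% of all genes). At t4, leaving out baseline mouse 343 lowered the count to 10, and leaving out baseline mouse 352 or 356 lowered it to 11. Fitted on the 2 groups alone, fewer genes passed the filter, and the count was 7 of 12 tested (t0), 22 of 24 (t2), 7 of 14 (t4) and 15 of 17 (t6). With limma on log2(CPM + 1) it was 4 at t0 and 3 at t4. Among the genes given in full, this ended the calls of Atp2a1, Myh4, Tnnt3, Ckm, Tnnc2, Myh1 and Myh2 in both comparisons and of Ldb3 at t0. With a pseudocount of 0.1 the calls of Tnnt3, Myh1 and Myh2 in both and of Ckm and Ldb3 at t0 were lost among them. Without a filter on low counts the edgeR count was 22 at t0 and 10 at t4. Of the genes given in full, Tnnt3, Acta1 and Myh2 were then no longer called at t4 (adjusted p = 0.0656, 0.0505 and 0.0658 by edgeR).

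**Figure D3:**
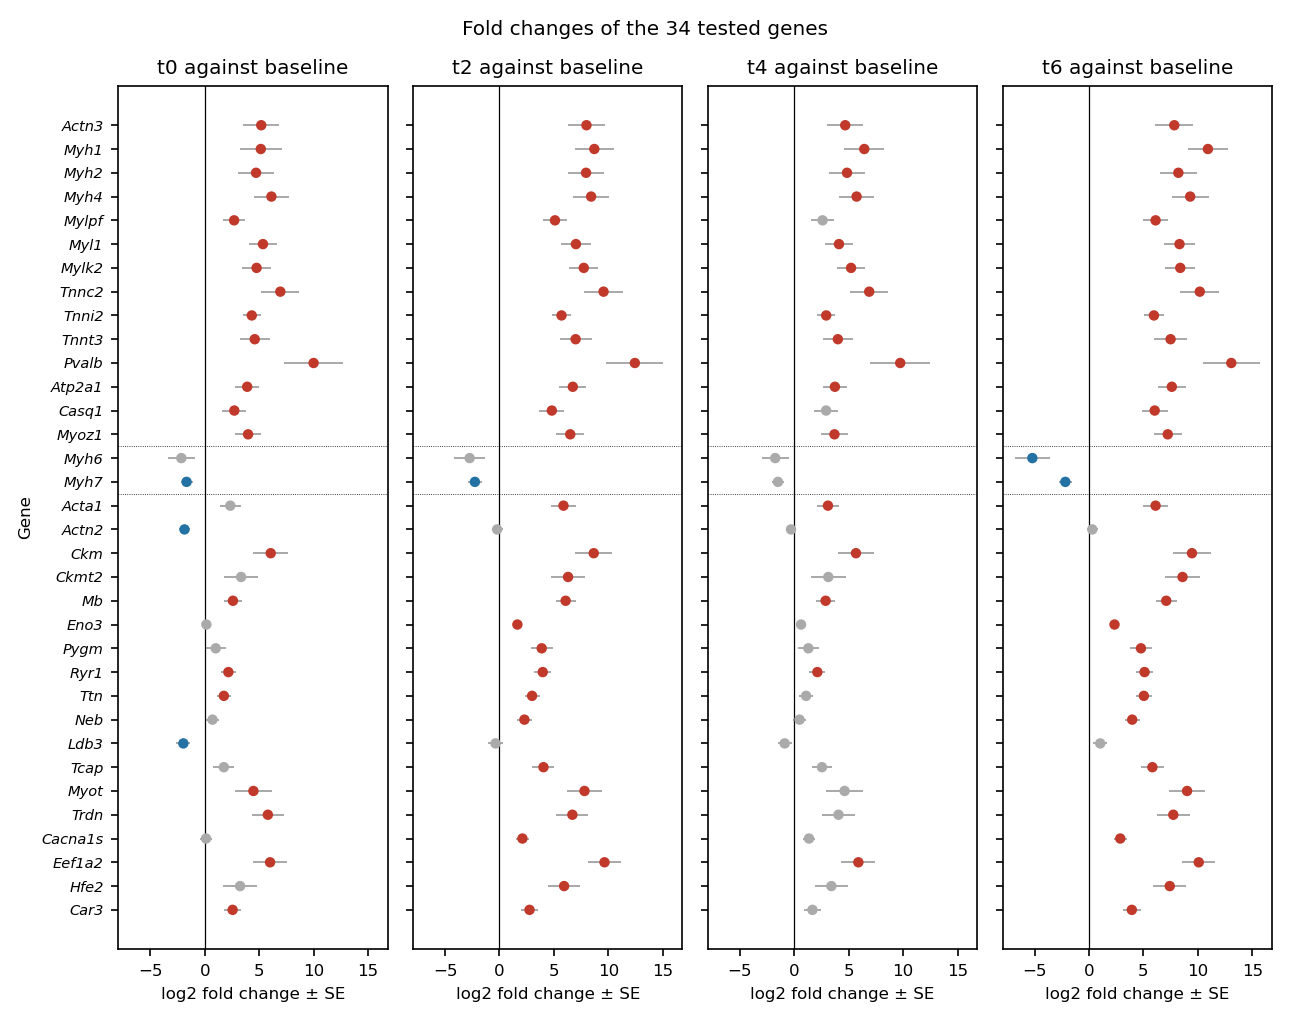
Log2 fold change against baseline, with its standard error, of the 34 tested genes at t0, t2, t4 and t6; red points were called higher, blue lower and grey not called (edgeR, adjusted p under 0.05), and dotted lines part fast, slow or cardiac, and both-fibre-type genes. All 14 fast genes are red at t0, t2 and t6, while Myh7 is blue at t0, t2 and t6.

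Myosin heavy chains are the motors of the sarcomere. Their fast genes Myh2, Myh1 and Myh4 lie next to each other on chromosome 11 (mm10, 67171027 to 67260448) and are similar in sequence, so the division of reads between them is uncertain. Myh4, the motor of the fastest fibres, was at 0 to 0.804 CPM (median 0.071) at baseline, 0.0459 to 46.7 CPM (median 2.27) at t0 and 0.706 to 18.4 CPM (median 14.9) at t4. The t2 mice had 31.4 (mouse 334), 43.7 (mouse 339), 14 (mouse 347), 10.8 (mouse 358) and 257 (mouse 360) CPM. At t6 it was at 116 (mouse 341), 1.16 (mouse 349), 56.7 (mouse 365), 358 (mouse 366) and 120.3 (mouse 368) CPM. Each t2 and t6 library was above each baseline library, whereas at t0 and t4 the groups overlapped. The log2 fold change of Myh4 against baseline was 6.13 ± 1.60 (adjusted p = 0.00307) in t0, 8.42 ± 1.68 (adjusted p = 0.00141) in t2, 5.73 ± 1.60 (adjusted p = 0.0142) in t4 and 9.29 ± 1.72 (adjusted p = 0.00107) in t6 mice by edgeR.

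Myh1 was at 0 in 5 baseline libraries and at 0.182 CPM in mouse 356. In t2 mice it was at 4.41 (mouse 334), 2.33 (mouse 339), 6.82 (mouse 347), 5.91 (mouse 358) and 57.8 (mouse 360) CPM. At t6 it was at 85.4 (mouse 341), 0.337 (mouse 349), 20.3 (mouse 365), 103 (mouse 366) and 148 (mouse 368) CPM. All t2 and t6 libraries lay above baseline. At t0 it ranged over 0 to 4.11 CPM (median 0.617) and at t4 over 0 to 7.96 CPM (median 2.86), overlapping baseline both times. The log2 fold change was 8.71 ± 1.81 (adjusted p = 0.00191) at t2 and 10.92 ± 1.85 (adjusted p = 0.000469) at t6 by edgeR. The t0 call (5.15 ± 1.92 (adjusted p = 0.0308)) was lost when t0 mouse 357 or 359, or any of 5 baseline mice (343, 344, 345, 352 or 355), was left out, with an adjusted p of up to 0.0847 by edgeR.

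Myh2, the motor of fast oxidative fibres, was the scarcest of the 3, with 3 counts in all at baseline. Values at t2 were 0.228 (mouse 334), 2.27 (mouse 339), 6.61 (mouse 347), 0.669 (mouse 358) and 20.7 (mouse 360) CPM, and those at t6 were 4.23 (mouse 341), 0.674 (mouse 349), 2.74 (mouse 365), 13.2 (mouse 366) and 15.5 (mouse 368) CPM. At t0 it ranged over 0 to 2.03 CPM (median 0.188) and at t4 over 0 to 3.6 CPM (median 0.185). The t2 and t6 libraries did not overlap with baseline. The ratio of counts to baseline, per scaled library, was 289 at t2 (95% interval 98.5 to 1404, counting error only) and 388 at t6 (95% interval 133 to 1886). Without t2 mouse 360 the t2 ratio was 131. Without baseline mouse 352, which held most of the few baseline counts, the ratio was 752 at t2 and 1011 at t6. These omissions from pooled counts were chosen after seeing the data. At t4 the call rested on mouse 336 at 3.60 CPM, since without that mouse the adjusted p by edgeR was 0.262. It was also lost without baseline mouse 343, 344, 345, 355 or 356. At t0 it was lost without mouse 357 (adjusted p = 0.0650 by edgeR), and without the 4 libraries singled out above for haemoglobin or Gprc5a (0.0703).

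Troponin C is the calcium sensor of the thin filament. Tnnc2 was at 0 to 0.139 CPM (median 0) at baseline, 0.0459 to 16.8 CPM (median 1.09) at t0 and 0.163 to 9.39 CPM (median 4.61) at t4. The 5 t2 mice had 6.92 (mouse 334), 39.4 (mouse 339), 7.43 (mouse 347), 4.64 (mouse 358) and 80.1 (mouse 360) CPM, and the 5 t6 mice had 41.8 (mouse 341), 0.612 (mouse 349), 20.4 (mouse 365), 83.4 (mouse 366) and 65.5 (mouse 368) CPM. The fast sensor was at 0 in 4 of 6 baseline libraries, and its t2, t4 and t6 values did not overlap with baseline. Tnnc2 had an edgeR log2 fold change of 6.95 ± 1.74 (adjusted p = 0.00211) at t0, 9.56 ± 1.76 (adjusted p = 0.000739) at t2, 6.88 ± 1.74 (adjusted p = 0.00764) at t4 and, by t6, 10.17 ± 1.77 (adjusted p = 0.000593). The slow and cardiac sensor Tnnc1 never exceeded 0.456 CPM, reached in t0 mouse 332. It was at 0.0364 to 0.173 CPM in 5 baseline libraries and at 0 in the sixth, mouse 344. At t6 it was at 0.109 (mouse 341), 0.0306 (mouse 349), 0.4 (mouse 365), 0.0609 (mouse 366) and 0.0287 (mouse 368) CPM. Its groups overlapped at every time, and it did not pass the filter.

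Troponin I holds the filament off at low calcium. Tnni2 was at 0.309 to 1.39 CPM (median 0.576) at baseline, 3.99 to 31.3 CPM (median 7.52) at t0 and 1.84 to 8.16 CPM (median 6) at t4. In the t2 group the values were 9.17 (mouse 334), 54.2 (mouse 339), 9.36 (mouse 347), 8.17 (mouse 358) and 98.9 (mouse 360) CPM, and in the t6 group 41.9 (mouse 341), 2.73 (mouse 349), 25.9 (mouse 365), 114 (mouse 366) and 30.8 (mouse 368) CPM. All exposed libraries were above all baseline libraries, including the 7 with little fast RNA. By edgeR, the log2 difference of Tnni2 from baseline was 4.32 ± 0.83 (adjusted p = 0.000143) at t0, 5.70 ± 0.88 (adjusted p = 0.00012) at t2 and 2.93 ± 0.81 (adjusted p = 0.0123) at t4, and it was 5.96 ± 0.88 (adjusted p = 8.76e-05) at t6. The slow form Tnni1 was at 0.193 to 2.01 CPM (median 0.412) at baseline, 0.206 to 0.912 CPM (median 0.682) at t0 and 0.0817 to 0.9 CPM (median 0.506) at t4. At t2 it was at 0.608 (mouse 334), 5.12 (mouse 339), 0.516 (mouse 347), 0.111 (mouse 358) and 0.133 (mouse 360) CPM, and at t6 at 0.362 (mouse 341), 0.582 (mouse 349), 1.51 (mouse 365), 0.64 (mouse 366) and 0.373 (mouse 368) CPM. Its highest value was thus in the library labelled t2 mouse 339, and t2 mouse 360, with the most fast RNA of that group, was among the lowest.

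Troponin T ties the complex to tropomyosin. Tnnt3 was at 0.0386 to 1.54 CPM (median 0.145) at baseline, 0.137 to 35.3 CPM (median 1.68) at t0 and 0.327 to 12.1 CPM (median 8.17) at t4. Its t2 values were 19.9 (mouse 334), 39.1 (mouse 339), 16.3 (mouse 347), 15 (mouse 358) and 174 (mouse 360) CPM, and its t6 values were 77.4 (mouse 341), 1.81 (mouse 349), 38.4 (mouse 365), 193 (mouse 366) and 61.2 (mouse 368) CPM. Each t2 and t6 library was above baseline, and at t0 and t4 the groups overlapped. Baseline mouse 344 was the highest of its group at 1.54 CPM, and baseline mouse 356, at 0.473 CPM, also lay above the lowest t0 and t4 libraries. The log2 fold change of Tnnt3 against baseline was 4.60 ± 1.36 (adjusted p = 0.008) in t0, 7.00 ± 1.46 (adjusted p = 0.00204) in t2, 4.00 ± 1.36 (adjusted p = 0.0397) in t4 and 7.49 ± 1.49 (adjusted p = 0.00216) in t6 mice by edgeR. The t4 call was lost in 9 of the 28 fits that left out 1 library, those without baseline mouse 343, 345, 352, 355 or 356 or t4 mouse 336, 340, 348 or 377, with an adjusted p of up to 0.0765 by edgeR. The slow form Tnnt1 stayed between 0 and 0.913 CPM in all 28 libraries, and its group ranges overlapped.

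Atp2a1 and Pvalb, which clear calcium in fast fibres, rose in all 4 comparisons with baseline. Atp2a1 was at 0.0366 to 1.24 CPM (median 0.859) at baseline, 0.918 to 35.1 CPM (median 3.24) at t0 and 2.24 to 17.9 CPM (median 12.2) at t4. The 5 t2 mice had 28.1 (mouse 334), 59.9 (mouse 339), 23 (mouse 347), 20.1 (mouse 358) and 285 (mouse 360) CPM, and the 5 t6 mice had 80.8 (mouse 341), 3.03 (mouse 349), 73.4 (mouse 365), 453 (mouse 366) and 149 (mouse 368) CPM. Atp2a1 is the calcium pump of fast fibres. Its t2, t4 and t6 libraries did not overlap with baseline. Atp2a1 had an edgeR log2 fold change of 3.90 ± 1.12 (adjusted p = 0.00615) at t0, 6.74 ± 1.22 (adjusted p = 0.000678) at t2, 3.73 ± 1.12 (adjusted p = 0.0211) at t4 and, by t6, 7.61 ± 1.26 (adjusted p = 0.000369). Pvalb, which encodes the calcium buffer of fast fibres, had no count in any baseline library. Against a floor of 3 counts over the baseline group (0.0192 CPM), it was at least 225-fold higher at t0, 1280.3-fold at t2 and 203-fold at t4, and at least 2157-fold higher at t6. The bounds rest on counts pooled within a group, and fell to 104-fold at t0 without mouse 367, to 612-fold at t2 without mouse 360 and to 1151-fold at t6 without mouse 366. Pvalb was at 0 in t0 mice 332, 374 and 375.

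The calcium store protein Casq1 rose at t0, t2 and t6. Its slow and cardiac counterpart Casq2 was at 0 to 1.92 CPM over the 28 libraries and did not pass the filter. The release channel Ryr1 rose in all 4 comparisons, from a baseline mean of 0.314 CPM to 10.9 CPM at t6. Its voltage sensor Cacna1s rose at t2 and t6 only by this test (adjusted p = 0.0121 at t2, and a log2 fold change of 2.87 ± 0.59 (adjusted p = 0.00241) at t6 by edgeR), and was at 0.12 ± 0.56 (adjusted p = 0.874) at t0. Trdn, which anchors the calcium store to the release channel, went from 3 counts in the baseline group to 165 in t0, 356 in t2, 45 in t4 and 836 in t6 mice. It was called at t0, t2 and t6.

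Myh7, the slow-fibre and ventricular motor, was the most abundant of the 5 myosin genes at baseline and fell. It was at 12.2 to 77.8 CPM (median 25.6) at baseline, 5.24 to 20.2 CPM (median 11.5) at t0 and 5.19 to 44.1 CPM (median 7.22) at t4. The t2 mice had 3.57 (mouse 334), 8.87 (mouse 339), 3.17 (mouse 347), 5.54 (mouse 358) and 18 (mouse 360) CPM. At t6 it was at 7.89 (mouse 341), 8.14 (mouse 349), 11.9 (mouse 365), 9.35 (mouse 366) and 4.05 (mouse 368) CPM. Baseline mice 352, 355 and 356 were the high ones at 67.4, 77.8 and 33.3 CPM, and t4 mouse 377 stood apart from the rest of its group at 44.1 CPM. Only the t6 libraries lay wholly below baseline (4.73% of all genes did at t6). By edgeR, the log2 difference of Myh7 from baseline was -1.67 ± 0.56 (adjusted p = 0.0163) at t0, -2.26 ± 0.61 (adjusted p = 0.0105) at t2 and -1.50 ± 0.55 (adjusted p = 0.0555) at t4, and it was -2.18 ± 0.60 (adjusted p = 0.0228) at t6. The t0 call was lost without baseline mouse 355 (adjusted p = 0.0564 by edgeR). The t6 call was lost without baseline mouse 352 or 355 or t6 mouse 341, 349 or 368 (up to 0.0577). At t4 the fall was called without mouse 377 (-2.42, adjusted p = 0.00171 by edgeR). It was also called there without baseline mouse 344 or 345 or t2 mouse 360, and by DESeq2 and limma.

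Myh6, the motor of the adult heart, lies beside Myh7 on chromosome 14 (mm10, 54941921 to 54966608), and reads shared by both are uncertain. At baseline it was at 16.8, 17.6 and 5.20 CPM in mice 352, 355 and 356, and at 0.387, 0.219 and 0.728 CPM in mice 343, 344 and 345. The 3 baseline libraries with most Myh7 were thus also those with most Myh6. Myh6 ranged over 0 to 3.34 CPM (median 1.39) at t0 and 0.0692 to 10.6 CPM (median 0.34) at t4, where the highest was again mouse 377. In t2 mice it was at 0.228 (mouse 334), 0.13 (mouse 339), 0.103 (mouse 347), 0.0371 (mouse 358) and 4.65 (mouse 360) CPM, and at t6 at 0.0362 (mouse 341), 0.184 (mouse 349), 0.462 (mouse 365), 0.183 (mouse 366) and 0.0287 (mouse 368) CPM. By edgeR it fell at t6 (-5.21 ± 1.62 (adjusted p = 0.0422)), a call lost without any 1 of the 5 t6 mice or of baseline mice 352, 355 and 356 (adjusted p up to 0.0921). It was also lost with library totals alone (0.0640) and without a filter on low counts (0.0711) by edgeR, and by limma with either pseudocount (adjusted p = 0.0853 and 0.0759). It was called at t2 only without t2 mouse 360 (-5.72, adjusted p = 0.0193) and at t4 only without t4 mouse 377 (-4.52, adjusted p = 0.0238), both by edgeR.

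Other genes of slow fibres and heart did not follow Myh7 and Myh6 at every time. The slow and ventricular light chains Myl2 and Myl3 never exceeded 0.183 and 0.115 CPM. Summed over 11 further heart markers, levels were 23.5 to 46.3 CPM at baseline (median 32.2), 50.6 to 93.2 at t4 (median 70.4) and 49.7 to 89.2 at t6 (median 70.5), so that each t4 and t6 library lay above each baseline library. Tnni3 and Ryr2 were the most abundant of them, while Nkx2-5, Tbx20, Bmp10 and Nppb stayed at or below 0.227 CPM in all 28 libraries and Mybpc3 at or below 1.78. Tnni3, the cardiac troponin I gene, was at 6.44 to 16.7 CPM at baseline and rose at t4 (1.78 ± 0.26, adjusted p = 4.74e-05) and t6 (1.54 ± 0.27, adjusted p = 0.000533) by edgeR, opposite in direction to Myh6. It and Tnnt2 were the 2 of 5 tested heart markers that were higher at t4, and it and Actc1 those at t6. Of all genes, 1488 of 14847 were higher at t4 and 4.54% at t6. At t0, 1 of the 5 was higher and 1 lower (23.3% and 22.3% of all genes). At t2, 1 was higher (11.2% of all genes). The calcium channel Ryr2 fell at t0 (-2.02 ± 0.47, adjusted p = 0.000879 by edgeR) and was not called later.

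Set against each other per kb of transcript, the myosin genes changed order between baseline and later groups. Myh7 made up 79.6% to 96.6% of the 5 myosins in each baseline library and Myh4 at most 4.83%. At t2 Myh4 made up 46.1% to 79.2% (median 72.0%) and Myh7 4.86% to 23.5%. At t6 Myh4 had a median share of 54.6% and Myh1 of 22%, except that Myh7 kept 77.0% in mouse 349. At t0 and t4 the libraries divided, with Myh7 at 9.20% to 90.7% and 22.6% to 85.8%. Shares can rise because 1 form rises or because another falls, and both were measured here.

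**Figure D4:**
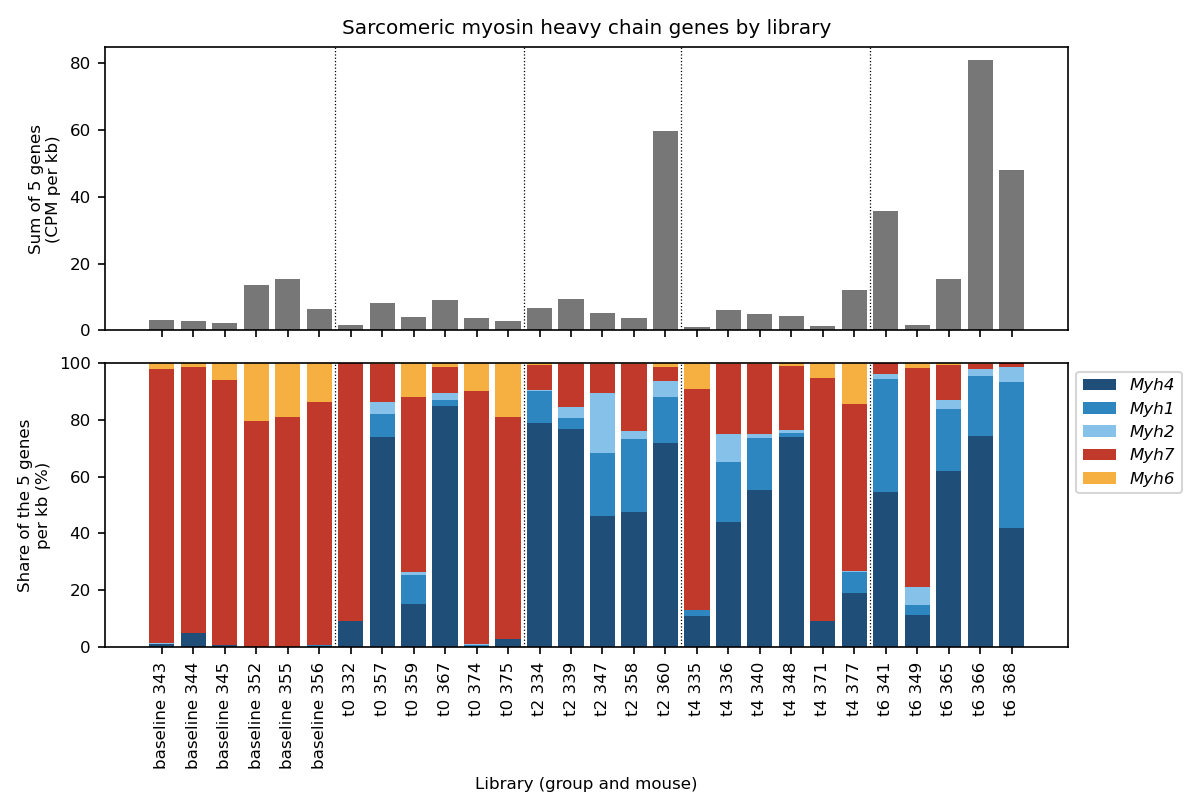
Upper panel: summed CPM per kb of transcript of Myh4, Myh1, Myh2, Myh7 and Myh6 in each knockout library. Lower panel: the share of each gene in that sum, in percent; baseline bars are mostly Myh7 (79.6% to 96.6%), whereas t2 bars are mostly fast forms, with Myh4 at a median of 72.0%.

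The troponins were mostly of the fast form per kb wherever at least 20 counts allowed a share. The exceptions were baseline mouse 344, with 51.1% Tnni1, and t4 mouse 335, with 61.9% Tnnt1. At baseline, where the myosins were mostly Myh7, only 4 libraries allowed a share for troponin I and 2 for troponin T. No baseline library did for troponin C. Below that limit, Tnnt1 had more counts than Tnnt3 in baseline mice 345 (14 to 5), 352 (4 to 1) and 355 (5 to 1), and fewer in mouse 343 (1 to 3). Tnnc2 made up 90.5% to 100% of troponin C per kb in 17 exposed libraries with enough counts. Tnnc1 had at most 13 counts in any library, so 20 counts could be reached only with Tnnc2, and this share was largely set in advance. Below that limit, Tnnc2 and Tnnc1 had 3 and 10 counts in t0 mouse 332, 1 and 1 in mouse 374, and 3 and 2 in mouse 375. They had 8 and 1 in t4 mouse 335 and 2 and 2 in t4 mouse 371. Tnni2 made up 48.9% to 80.6% of troponin I in 4 baseline libraries, 92.8% to 98.0% at t0, 93.6% to 99.9% at t2, 76.2% to 97.6% at t4 and 86.6% to 99.6% at t6. Tnnt3 made up at least 93.4% of troponin T in the 3 t0 and 5 t2 libraries with enough counts. Its lowest share was 57.1% at baseline, 38.1% at t4 and 80.7% at t6.

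Among the genes of both fibre types, skeletal actin Acta1 had the highest mean level over all 28 libraries. At baseline its mean (2.79 CPM) was below those of Ldb3 (8.46), Eno3 (8.19), Car3 (8.18) and Actn2 (7.13), and Car3 exceeded it at t0 and t4. Acta1 was at 0.534 to 7.06 CPM (median 2.33) at baseline, 0.547 to 41.1 CPM (median 4.15) at t0 and 11.5 to 34.6 CPM (median 23.5) at t4. In the t2 group the values were 79.4 (mouse 334), 92.3 (mouse 339), 56.9 (mouse 347), 44.9 (mouse 358) and 557 (mouse 360) CPM, and in the t6 group 173 (mouse 341), 8.08 (mouse 349), 92.4 (mouse 365), 486 (mouse 366) and 217 (mouse 368) CPM. All t2, t4 and t6 libraries were above baseline. The log2 fold change of Acta1 against baseline was 2.35 ± 0.97 (adjusted p = 0.0507) in t0, 5.88 ± 1.12 (adjusted p = 0.000937) in t2, 3.09 ± 0.99 (adjusted p = 0.0298) in t4 and 6.11 ± 1.13 (adjusted p = 0.00104) in t6 mice by edgeR. The t4 call was lost in 6 of 28 fits without 1 library (baseline mouse 343, 345, 352 or 356, t4 mouse 335 or 340; adjusted p up to 0.0660 by edgeR). The t0 change was called by DESeq2 (adjusted p = 0.0162) and in 9 edgeR fits without 1 library (baseline mouse 344, t0 mouse 332, 359, 374 or 375, t2 mouse 339 or 360, t6 mouse 349 or 366; adjusted p down to 0.0292). Acta1 and the cardiac actin Actc1 are near-identical in sequence, so reads may be divided between them.

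Creatine kinase M, encoded by Ckm, buffers ATP in muscle. Ckm was at 0 to 0.439 CPM (median 0.118) at baseline, 0 to 43.6 CPM (median 1.92) at t0 and 0.408 to 16.9 CPM (median 12.9) at t4. Its t2 values were 42.2 (mouse 334), 38.5 (mouse 339), 22.9 (mouse 347), 15.9 (mouse 358) and 276 (mouse 360) CPM, and its t6 values were 102 (mouse 341), 1.13 (mouse 349), 63.5 (mouse 365), 319 (mouse 366) and 200.4 (mouse 368) CPM. The t2 and t6 libraries were all above baseline, and at t0 and t4 the groups overlapped. Ckm had an edgeR log2 fold change of 6.06 ± 1.62 (adjusted p = 0.00363) at t0, 8.66 ± 1.70 (adjusted p = 0.00129) at t2, 5.67 ± 1.62 (adjusted p = 0.0161) at t4 and, by t6, 9.45 ± 1.74 (adjusted p = 0.00101). Mb, the oxygen store myoglobin, rose in all 4 comparisons, up to 7.09 ± 0.95 (adjusted p = 3.05e-05) at t6. The mitochondrial kinase Ckmt2 and the glycolytic Eno3 and Pygm rose at t2 and t6 and were not called at t0 or t4. Eno3 was at 5.53 to 13.4 CPM already at baseline, so its changes were small (1.64 ± 0.40 at t2 and 2.34 ± 0.41 at t6).

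Z-disc and scaffold genes did not move as 1 group. Ttn, the giant elastic protein gene, rose at t0, t2 and t6, and Neb and Tcap rose at t2 and t6. Myot went from 1 count at baseline to 955 at t6. Actn2 and Ldb3, both of the Z-disc, did not rise against baseline at any time by this test. Actn2 was at 5.92 to 9.82 CPM (median 6.29) at baseline, 0.964 to 3.07 CPM (median 1.89) at t0 and 2.7 to 7.43 CPM (median 6.45) at t4. The 5 t2 mice had 6.28 (mouse 334), 0.194 (mouse 339), 9.4 (mouse 347), 2.23 (mouse 358) and 12.6 (mouse 360) CPM, and the 5 t6 mice had 6.41 (mouse 341), 5.14 (mouse 349), 6.41 (mouse 365), 9.69 (mouse 366) and 16.1 (mouse 368) CPM. All 6 t0 libraries lay below baseline, as for 12.7% of all genes, and its log2 fold change at t0 was -1.86 ± 0.50 (adjusted p = 0.00367) by edgeR. At t2, t4 and t6 it was -0.22 ± 0.51 (adjusted p = 0.802), -0.30 ± 0.48 (adjusted p = 0.709) and 0.30 ± 0.50 (adjusted p = 0.789).

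Ldb3, which links alpha-actinin to signalling proteins, divided the baseline mice. It was at 16.4, 16.5 and 11.4 CPM in mice 343, 344 and 345, and at 0.485, 1.00 and 5.09 CPM in mice 352, 355 and 356. The high mice were those with little Myh6, and the low ones those with most. Ldb3 ranged over 1.36 to 3.48 CPM (median 2.01) at t0 and 1.8 to 6.78 CPM (median 4.33) at t4. Values at t2 were 4.6 (mouse 334), 1.59 (mouse 339), 5.47 (mouse 347), 2.08 (mouse 358) and 19.2 (mouse 360) CPM, and those at t6 were 15.4 (mouse 341), 5.85 (mouse 349), 11.4 (mouse 365), 30.3 (mouse 366) and 23.3 (mouse 368) CPM. By edgeR, the log2 difference of Ldb3 from baseline was -1.96 ± 0.65 (adjusted p = 0.0149) at t0, -0.37 ± 0.65 (adjusted p = 0.732) at t2 and -0.88 ± 0.62 (adjusted p = 0.336) at t4, and it was 1.03 ± 0.64 (adjusted p = 0.36) at t6. Every group overlapped with baseline.

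Car3, a carbonic anhydrase of slow muscle that fat also makes, did not follow the fast genes library by library. Car3 was at 1.97 to 14.6 CPM (median 7.9) at baseline, 12.4 to 108 CPM (median 34.1) at t0 and 6.63 to 61 CPM (median 17.5) at t4. In the t2 group the values were 15.7 (mouse 334), 95.9 (mouse 339), 34.2 (mouse 347), 12.9 (mouse 358) and 119 (mouse 360) CPM, and in the t6 group 128 (mouse 341), 21 (mouse 349), 53 (mouse 365), 50.3 (mouse 366) and 371 (mouse 368) CPM. Its t0 maximum was in mouse 374 (108 CPM), the t0 mouse with the least fast RNA, and its highest value of all was in t6 mouse 368. Only at t6 did all libraries lie above baseline. The log2 fold change of Car3 against baseline was 2.56 ± 0.76 (adjusted p = 0.00783) in t0, 2.76 ± 0.78 (adjusted p = 0.0155) in t2, 1.67 ± 0.74 (adjusted p = 0.113) in t4 and 3.93 ± 0.82 (adjusted p = 0.00309) in t6 mice by edgeR. The summed fat markers moved beside it, at 253 CPM in t0 mouse 374 and 427 CPM in t6 mouse 368, the highest of their groups, and 29.5 to 51.6 CPM at baseline. Of 9 tested fat markers, 6 were higher at t0 and again at t4, 4 at t2 and 7 at t6, among them Fabp4, Cidec and Plin1. Of all genes, 23.3% were higher at t0, 11.2% at t2 and 4.54% at t6, and 1488 of 14847 at t4. The part of the fat markers in the Car3 result was not tested.

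**Figure D5:**
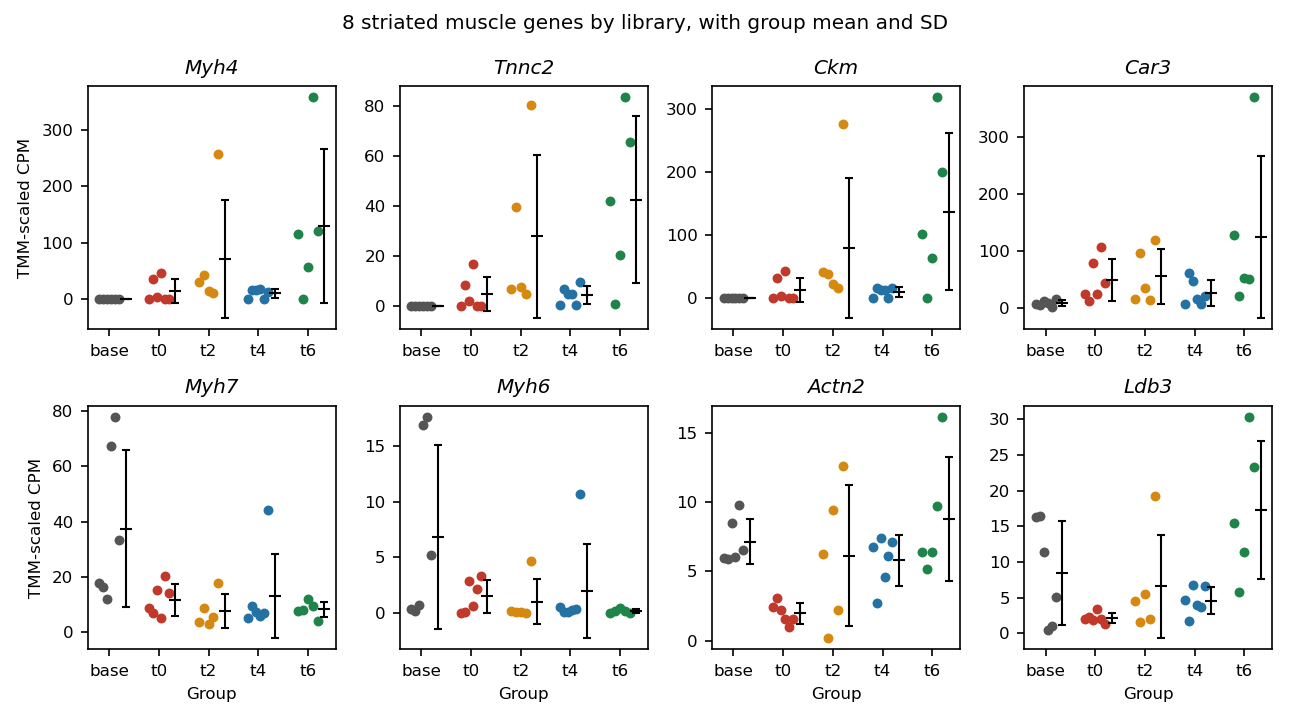
TMM-scaled CPM (linear axes) of 8 genes in each knockout library by group; points are mice and the bar beside them is the group mean with its SD (n = 5 or 6). Myh4, Tnnc2 and Ckm are near 0 at baseline and spread widely at t2 and t6, Myh7 and Myh6 are highest in baseline mice 352 and 355, Actn2 is lowest at t0, and Ldb3 divides the baseline mice.

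Libraries with fast muscle RNA differed in the ratios between muscle genes. The division of reads between Myh1 and Myh4 is uncertain, and t4 mouse 348 had only 8 Myh1 counts. The ratio of Myh1 to Myh4 counts was 0.0196 in t4 mouse 348, 0.0245 in t0 mouse 367, 0.225 in t2 mouse 360, 0.286 in t6 mouse 366 and 1.23 in t6 mouse 368. The last library also had the most Mb per Ckm count among the muscle-rich t6 libraries (0.641, against 0.144 to 0.341 in mice 341, 365 and 366). Its Ckmt2 to Ckm ratio was 0.197, against 0.0297 to 0.0579 in those 3, and its Pvalb to Ckm ratio 0.110, against 0.365 to 0.447. Mb and Ckmt2 are abundant in oxidative fibres and Pvalb in glycolytic ones. Smooth muscle markers were also highest in t6 mouse 368, at 390 CPM summed, against 31.3 to 104 CPM in the other t6 libraries.

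The library labelled t2 mouse 339 stood apart in another way. It had 1190 Ckm counts but none of Ckmt2 or Hfe2, while t2 mouse 334, with 1109 Ckm counts, had 23 of Ckmt2. Its Mb to Ckm ratio was 0.896 and its Tnnc2 to Tnnt3 ratio 1.01, against 0.0631 to 0.568 and 0.310 to 0.461 in the other t2 libraries. Without this library and the 3 haemoglobin-rich ones, 19 genes were higher at t0, 30 at both t2 and t6 and 23 at t4, and Myh7 and Myh6 were no longer called at t6 (adjusted p = 0.0605 and 0.0798 by edgeR).

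The exposed groups were also compared with each other. At t2 against t0, 13 of the 34 were higher and none lower, where 15.7% of all genes were higher and 14.2% lower. Among the 13 were Acta1 (3.53 ± 0.99 (adjusted p = 0.0087)), Mb (3.48 ± 0.79 (adjusted p = 0.0014)) and Eef1a2 (3.64 ± 1.01 (adjusted p = 0.0069)), the muscle form of an elongation factor, by edgeR. This count was 2 without t2 mouse 360 and 22 without t0 mouse 367. It was 7 without t0 mouse 332, 374 or 375, and 8 without t0 mouse 359. At t4 against t0 only Actn2 was called (1.56 ± 0.50 (adjusted p = 0.0168) by edgeR), with 15.9% of all genes higher and 17.5% lower. At t6 against t0, 27 were higher and none lower (18.2% of all genes higher, 20.5% lower), among them 11 of the 14 fast genes. Libraries did not overlap there for Actn2, Ldb3 and Cacna1s, higher in each t6 library (10.9% of all genes).

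At t6 against t2 edgeR called none of the 34, while 5.64% of all genes were called in either direction. By edgeR 2 genes had an unadjusted p under 0.05. DESeq2 called 1 gene, Ttn, and limma called none with either pseudocount. Without t2 mouse 360 the edgeR count was 5, and without t6 mouse 349 it was 2. The median log2 fold change of the 34 was 0.87, which the spread between libraries did not resolve. The comparisons with baseline share the same 6 baseline libraries, so their values are set side by side and not counted as independent.

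Wild-type brushings from unexposed mice carried fast muscle RNA too. These were deposited as transcripts per 1000000 (TPM) and were processed apart from the knockout table, so no test was made between the genotypes. The 14 fast genes summed to 89.4 TPM (mouse 289), 117 (mouse 295), 5.29 (mouse 448), 188 (mouse 450), 577 (mouse 452) and 5.28 TPM (mouse 454). Thus 4 of the 6 were high and 2 low, without any exposure. Ckm was at 0.130 to 117 TPM and Acta1 at 0.860 to 101 TPM, and both were highest in mouse 452. Myh7 ranged over 3.78 to 29.2 TPM and was highest in mouse 295, while Myh6 was at 0 to 5.72 TPM.

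Other muscle genes were read against the share of all genes called higher, which was 23.3% at t0, 11.2% at t2 and 4.54% at t6, with 1488 of 14847 genes at t4. Of 26 further sarcomere genes 17 were tested, and 4 were higher and 1 lower at t0, while 12 were higher at t2, 5 at t4 and 14 by t6. The t0 count is near that share. The tropomyosin gene Tpm2 went from 1.57 to 4.98 CPM at baseline to 17.1 to 122 CPM at t6. Of 13 metabolic muscle genes, 3 were higher and 4 lower at t0, 5 higher at t2, 6 higher at t6, and 1 higher and 2 lower at t4. At t0 these counts are near the shares of all genes (23.3% higher and 22.3% lower). Of 9 tested excitation-contraction genes, none was called at t0 by edgeR, and 6 were higher at t2, 1 at t4 and 5 at t6. Over the 28 libraries, the genes outside the list most like the mean fast level were Cox6a2 (Pearson r 0.94 on log2 values), Mybpc1 (0.92), Pgam2 (0.91), Mybpc2 (0.91), Xirp2 (0.91) and Trim54 (0.90). Apobec2, Jsrp1, Nrap and Rpl3l followed at 0.88. These libraries share groups and scaling, so r is a description.

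Genes that drive the making of new muscle mostly did not pass the filter on low counts. Of 11 myogenic regulators 4 were tested, with 1 higher and 2 lower at t0, 1 lower at t4 and none called at t2 or t6 by edgeR, where 23.3% of all genes were higher and 22.3% lower at t0. The stem cell factor Pax7 was at 3.98 to 8.52 CPM at baseline and 1.62 to 5.28 CPM at t6. Of the embryonic and specialised myosin genes only Myl4 was tested, and it was not called in any comparison with baseline. Of 5 tested neuromuscular junction genes, Chrnb1 was higher at t2, t4 and t6, while at t0 Lrp4 was higher and Chrna1, the muscle receptor's alpha subunit, lower.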

How the data were processed

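RNA from tracheal brushings was read as poly-A libraries on an Ion Proton, with an RNA integrity number that had to reach 7, per the labels' protocols. The knockout table holds estimated counts per gene, deposited by the authors under a name that says RPKM. Its library totals differ, and 76.3% of its non-zero entries lie within 0.01 of a whole number. For the knockout libraries the listed names are Partek, Bowtie2 2.1.0, STAR 2.4.1d and mm10, per the submitters' processing notes. The role of each and the use of strand are not given in the sources used here. The wild-type files hold expected counts and TPM made with RSEM 1.3.1 and STAR 2.7.0f on GRCm38, per the submitters' processing notes. The authors gave gene coordinates in the deposited knockout table.

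The estimated counts were rounded. A gene was kept where 5 or more libraries reached 1 CPM, and the 14847 kept were fitted together over all 28 knockout libraries with edgeR 4.0.16 (quasi-likelihood, trimmed-mean scaling, 1 mean per group, two-sided), and p-values were adjusted by Benjamini-Hochberg over all of them. The p-values measure the spread between the mice of these groups. Depth limits the scarce genes: 3 counts over the baseline group equal 0.0192 CPM, and intervals and floors cover counting error only. Forms of 1 protein were compared per kb of GENCODE transcript length. DESeq2 1.42.0, limma 3.58.1 (pseudocounts 1 and 0.1), other filters and scalings, fits on 2 groups and fits without each library were alternatives. The procedure was tested on simulated data with known changes, in which each gene started from the same level in every group. That test did not cover genes near 0 at baseline alone, such as most fast genes here.

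The members and the 18 lists of other genes were chosen with earlier results of these data known. Full values are given for the 3 most abundant genes of each class, for genes called against the majority, and for each pair of fast and slow forms. Other genes are given by range and count. From each list, at most the 3 genes with the smallest F test p were to be named, and the 10 genes outside the list most like the fast mean. Heart markers, Scgb1a1 and some fat markers were named beyond that rule, after their values were seen. All per-sample columns of the tables used were assigned.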

Additional observations from a re-analysis of the deposited data

Results flagged for a closer look

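Some values stood apart from the other mice of their group, by the gap to the nearest mouse relative to the group's range. Of 85 gene and group pairs examined, 10 held such a mouse. Chance alone flags about 1 in 20 where values are normally distributed. These CPM values were skewed, so the number flagged is not read as an excess. Baseline mouse 344 was low for Atp2a1 (0.0366 CPM) and high for Myh4 (0.804 CPM) and Tnni1 (2.01 CPM). T4 mouse 377 was high for Myh7 (44.1 CPM) and Myh6 (10.6 CPM), and t4 mouse 336 for Myh2 (3.60 CPM). T2 mouse 360 was high for Myh6 (4.65 CPM) and Acta1 (557 CPM), and the library labelled t2 mouse 339 for Tnni1 (5.12 CPM). T6 mouse 365 was high for Tnnc1 (0.400 CPM), a gene with few counts.

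The exposed groups were set against each other by a direct contrast in edgeR. Between t2 and t0, 13 of the 34 genes were called (15.7% of all genes higher, 14.2% lower). Between t4 and t0 it was 1 (15.9% and 17.5%), fewer than among all genes, and between t6 and t0 it was 27 (18.2% and 20.5%). Between t6 and t2 it was 0 (5.64% of all genes in either direction).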

How the results depend on the processing

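Counts of called genes are given here under each alternative that moved them by over 1.5 times. With limma on log2(CPM + 1) the count was 4 at t0 and 3 at t4 against baseline, and with a pseudocount of 0.1 it was 10 at each, where edgeR gave 25 and 17. Without a filter on low counts it was 10 at t4. Fitted on the 2 groups compared alone, where fewer genes passed the filter, counts were 7 at t0, 7 at t4 and 15 (of 32) at t6 against baseline, 5 (of 13) at t2 against t0 and 3 (of 1) at t4 against t0. Without the library labelled t2 mouse 339 and the 3 haemoglobin-rich ones the count was 21 at t2 against t0 and 1 (of 0) at t6 against t2, where DESeq2 also called 1. The cause was not tested. Leaving out each library in turn gave 18 to 26 at t0, 27 to 31 at t2, 10 to 22 at t4 and 29 to 32 at t6 against baseline. It gave 2 to 22 at t2 against t0, 1 at t4 against t0, 19 to 31 at t6 against t0, 0 to 5 at t6 against t2 and 32 to 34 in the F test. No called gene given in full reversed its direction under these alternatives. Shares of forms counted without length correction moved by less than their spread between libraries. No paired analysis was possible because no mouse number is shared between groups. Myl2, Myl3, Tnnc1, Tnni1, Tnnt1 and Casq2 were left out by the filter on low counts, and without it none was called against baseline.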

Other observations

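Markers of other tissues near the trachea did not all follow the muscle genes. Counts of called genes are to be read against all genes tested, of which 23.3% were higher and 22.3% lower at t0, 11.2% and 8.73% at t2 and 4.54% and 4.29% at t6, with 1488 higher and 1419 lower of 14847 at t4. The squamous epithelial keratin Krt4 was at 76.2 to 225 CPM at baseline, and 8 of 10 tested squamous genes were higher at t0, 6 at t2, and 5 both at t4 and t6. Summed thyroid markers were at 21.1 to 1093 CPM at baseline, highest in mouse 356, and at 8.78 to 187 CPM at t6, with 1 higher and 1 lower of 5 tested genes at t0. Of 9 tested smooth muscle genes, 1 was higher at both t0 and t2, 3 at t4 and 5 by t6. Cartilage genes were lower for 1 of 5 at t0, 1 at t2 and 3 at t4, and fibroblast and tendon genes for 2 of 7 at t2, 4 at t4 and 1 at t6. Col1a1, the main collagen of tendon, was among these at t2, t4 and t6.

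Against the same shares, the endothelial and red blood cell counts at t0 were near those of all genes. The counts of higher salivary gland and nerve sheath genes at t0 were above them. So were those of lower airway epithelial genes at each time. Of 7 tested salivary gland genes, 3 were higher and 1 lower at t0 and 1 was higher at t2, with none called at t4 or t6. Summed over all 10 listed, salivary gland genes were at 12.4 to 986 CPM at baseline and 998 to 4755 CPM at t6. Of 5 endothelial genes, 1 was higher at t0 and 1 at t2, and of 5 red blood cell genes, 1 was higher at t0 and 1 at t4. Of 6 nerve sheath genes, 3 were higher and 2 lower at t0 and 2 were higher at t2. Of 10 airway epithelial genes, 6 were lower at t0, 2 at t2, 4 at t4 and 3 by t6, and 1 was higher in each of the first 3 comparisons.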
